A study of Mus musculus with 9 samples.

Results

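The 10 genes described here move phosphate through the proximal tubular cell, hold its carriers in the brush border, or belong to the Klotho and vitamin D response to the hormone FGF23. They were chosen by symbol for these roles: the phosphate carriers Slc34a1, Slc34a3, Slc20a2 and Xpr1, the PDZ scaffold proteins Slc9a3r1 and Pdzk1, the FGF23 co-receptor Kl, and the vitamin D genes Cyp27b1, Cyp24a1 and Vdr. Earlier results of these data were known when the choice was made. All 10 were among the 24421 genes of the table, and all 10 were among the 15583 genes that passed the filter on low counts.

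RNA sequencing was carried out on tdTomato-positive cells sorted from the kidney cortex of 9 C57BL/6-background mice, 3 in each of 3 groups. *db/m* mice were heterozygous for Leprdb and served as non-diabetic controls, *db/db* mice were homozygous, type 2 diabetic and received vehicle, and *db/db*-dapa mice received the SGLT2 inhibitor dapagliflozin at 1.5 mg/kg/day in the drinking water for 8 weeks. Mice of every group also carried a GFP-CreERT2 cassette in the Slc34a1 locus and the R26tdTomato reporter, and were given 5 injections of 3 mg tamoxifen from 8 weeks of age. The sorted cells were thus marked through the activity of Slc34a1, one of the 10 genes, and the Slc34a1 reads came from a locus altered in all 3 groups. The number of cassette copies per mouse is not given in the sources used here.

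Total counts were 4817721 to 6571572 in *db/m*, 2733349 to 7635669 in *db/db* and 6981225 to 9033123 in *db/db*-dapa. All 10 proximal tubule markers were tested, and their summed level was 16190 to 27810 CPM (counts relative to the TMM-scaled library total) over the 9 mice. The 5 collecting duct markers summed to 145 to 749 CPM and the 5 thick ascending limb markers to 467 to 1799 CPM. In *db/db* replicate 3, *db/db*-dapa replicate 2 and *db/db*-dapa replicate 3, genes with long transcripts were high relative to the mean of all mice. The rank correlation of a gene's deviation with its transcript length was 0.43, 0.304 and 0.325 across genes in these 3 libraries, against -0.358 to -0.00212 in the other 6. Genes are not independent replicates, so no p-value is given. Where a value of the 10 genes in *db/db* against *db/m* turned on one of these libraries, it is also given without that library or with the length trend removed. For the other comparisons this is done only in part. For genes of the wider lists that did not pass, such values are not given.

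Filtered phosphate is taken back in the proximal tubule by sodium-phosphate cotransporters of the brush border, chiefly Slc34a1 (NaPi-IIa), with Slc34a3 (NaPi-IIc) and Slc20a2 (PiT-2), and Xpr1 exports phosphate from cells. The bone hormone FGF23 acts through an FGF receptor paired with Klotho: it lowers brush border NaPi-IIa and NaPi-IIc, represses Cyp27b1, which makes the active vitamin D calcitriol, and induces Cyp24a1, which degrades it. Parathyroid hormone also withdraws NaPi-IIa but induces Cyp27b1, and calcitriol, through its receptor Vdr, induces Cyp24a1 and represses Cyp27b1. Serum phosphate, FGF23, parathyroid hormone and calcitriol were not analysed here.

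Per kilobase of the longest annotated transcript, the scale on which genes can be compared with each other, Slc34a1 stood highest at a mean of 1128 CPM per kilobase over the 9 mice. Pdzk1 followed at 588, Slc9a3r1 at 187 and Kl at 114 CPM per kilobase. Cyp24a1 averaged 77.0, Vdr 52.3, Slc34a3 52.3 and Cyp27b1 30.6 CPM per kilobase, and the lowest were Xpr1 at 15.9 and Slc20a2 at 11.9. The ranges over mice of Slc34a1 (886 to 1555) and Pdzk1 (487 to 641) overlapped with no other gene of the 10. From Slc9a3r1 downward, each gene's range overlapped that of the next, so these neighbours were not separated beyond the spread between mice. Slc34a1 made up 92.7% to 96.2% of the summed per-kilobase level of the 3 sodium-dependent importers in each mouse. The files do not pair levels with protein, and phosphate carriers are also regulated by their removal from the membrane.

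**Figure D1:**
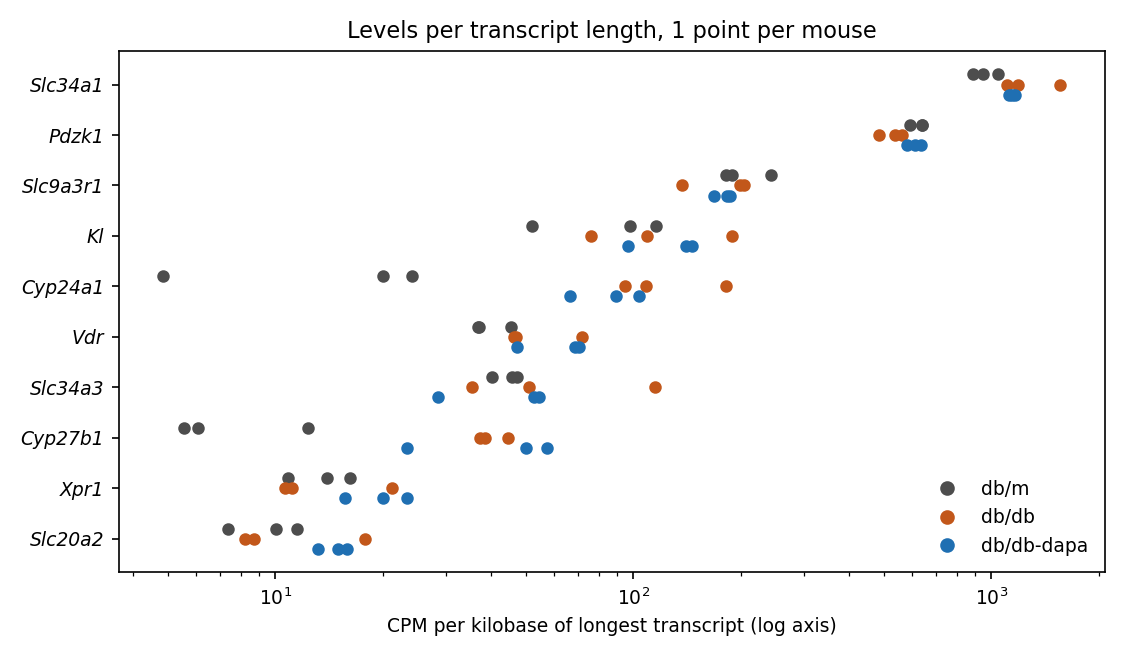
Level of each of the 10 genes in CPM per kilobase of its longest transcript (log axis), with 1 point for each of 9 mice coloured by group. Slc34a1 and Pdzk1 stand apart at the top, and the *db/m* points of Cyp24a1 and Cyp27b1 lie to the left of all diabetic points.

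In diabetic mice, both enzymes that set the level of calcitriol were higher at the RNA level, the one that makes it and the one that degrades it. Compared with *db/m*, Cyp27b1 was 4.996-fold (95% interval 2.86 to 8.72) and Cyp24a1 7.81-fold (3.75 to 16.3) higher in *db/db*. These were the only 2 of the 10 genes to be called in that comparison, at an adjusted p under 0.1 with a change of more than 2-fold, while 1.24% of all genes tested were called. The same 2 passed at an adjusted p under 0.1 at any fold, against 1.67% of all genes. None of the 4 phosphate carriers, 2 scaffolds, Kl or Vdr passed. Between *db/db*-dapa and *db/db*, 0 of 10 genes were called.

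Cyp27b1 (chr10:127048250-127053006, plus strand, GRCm38), the enzyme gene for calcitriol synthesis, is a low-expressed gene in healthy proximal tubule. Its level was 13.5, 30.2 and 14.9 CPM in the 3 *db/m* mice, 109, 94.2 and 90.9 CPM in the *db/db* mice, and 57.1, 122 and 140 CPM in the *db/db*-dapa mice. All 6 diabetic mice lay above all *db/m* mice, and the *db/db* mice lay close together while the *db/db*-dapa mice lay on both sides of them. The deposited counts behind these levels were 67 to 173 in *db/m* and 320 to 1238 in the diabetic mice, well above the floor of 3 counts. In *db/db* against *db/m*, the log2 fold change was 2.32 (SE 0.37), with an adjusted p of 0.0147 by the quasi-likelihood test of edgeR with Benjamini-Hochberg adjustment.

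The bases upstream of Cyp27b1 are shown because it is one of the 2 genes that changed and because repression and induction of this gene are known to act in part through its promoter. The sequence is from RefSeq (GRCm38.p6), chr10:127047996-127048245, plus strand, 5′ to 3′, and ends 1 base before the RefSeq start. Capitals mark matches to the motifs searched, and ATTGG is CCAAT read on the minus strand.
Cyp27b1 upstream: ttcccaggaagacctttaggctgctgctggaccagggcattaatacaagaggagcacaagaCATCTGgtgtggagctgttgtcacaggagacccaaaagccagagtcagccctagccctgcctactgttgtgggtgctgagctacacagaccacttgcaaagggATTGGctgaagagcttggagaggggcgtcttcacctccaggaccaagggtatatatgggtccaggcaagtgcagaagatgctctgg

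On both strands, 4 patterns were searched: CCAAT, bound by NF-Y, TGACG, the core of cAMP response elements, CATCTG, an E-box of the kind bound by basic helix-loop-helix factors, and the vitamin D response element, a pair of hexamers in the same direction with 3 bases between them, the form bound by Vdr with its partner Rxr. CCAAT matched once, at bases 86 to 82 before the start, and CATCTG once, at bases 189 to 184. Of 32851 RefSeq windows of 250 bases, 33.8% held CCAAT, 14.4% CATCTG, 17.8% TGACG and 0.0396% the hexamer pair. TGACG and the hexamer pair did not match in the Cyp27b1 window, which says only that these letters are not in these 250 bases. RefSeq windows were given for 8 of the 10 genes, all but Cyp24a1 and Slc20a2.

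Cyp24a1 (chr2:170482708-170497145, minus strand), the enzyme gene for calcitriol breakdown, was measured at 71.2, 85.8 and 17.3 CPM in *db/m*, 646, 337 and 386 CPM in *db/db*, and 318, 237 and 369 CPM in *db/db*-dapa. The lowest diabetic mouse was above the highest *db/m* mouse, and *db/m* replicate 3 was the lowest of all. In *db/db* against *db/m* the log2 fold change was 2.97 (SE 0.48), with an adjusted p of 0.0182 by edgeR. Exons of Pfdn4 overlap Cyp24a1 on the opposite strand, and it is not stated whether reads were counted by strand. Pfdn4 was at 11.6 to 18.4 CPM in *db/m* and 14.6 to 26.5 CPM in the diabetic mice, which is small beside the difference in Cyp24a1.

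Both calls in *db/db* against *db/m* held under all 22 alternative settings. Over these the log2 fold change was 2.11 to 2.78 for Cyp27b1 and 2.53 to 3.35 for Cyp24a1, with adjusted p up to 0.0932 and 0.0872. With the length trend removed, the values were 2.36 (adjusted p 0.0152 by edgeR) and 2.95 (adjusted p 0.0154). The ratio of Cyp24a1 to Cyp27b1 per kilobase was 3.61, 1.95 and 0.799 in *db/m*, 4.07, 2.45 and 2.91 in *db/db*, and 3.82, 1.33 and 1.81 in *db/db*-dapa. The 3 groups overlapped in this ratio, although both genes were higher in the diabetic mice.

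**Figure D2:**
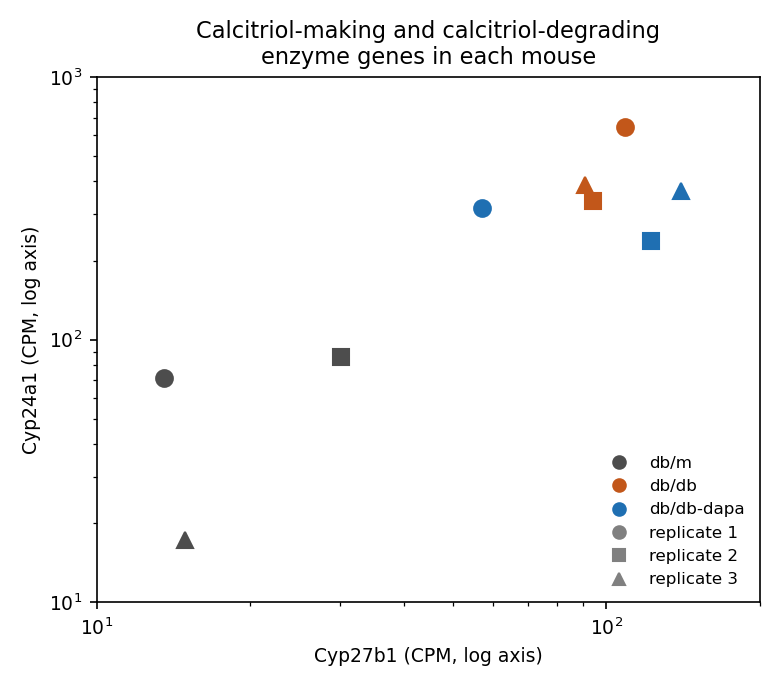
Cyp27b1 against Cyp24a1 in CPM (both axes log), with 1 point per mouse, colour for the group and shape for the replicate number. The 6 diabetic mice lie in the upper right (Cyp27b1 57.1 to 140 CPM, Cyp24a1 237 to 646 CPM) and the 3 *db/m* mice in the lower left.

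Other measures moved with this difference. The summed level of 6 markers of the S1 and S2 segments was 4414 to 5085 CPM in *db/m*, 5968 to 6909 CPM in *db/db* and 6774 to 7451 CPM in *db/db*-dapa, so it too was higher in all diabetic mice. In *db/db* against *db/m* 5 of these 6 were higher and 1, Slc22a6, lower, at 384 to 1882 CPM against 1282 to 1453 CPM. In every comparison 0 of the 6 were called. The summed level of 6 S3 markers was 923 to 1119 CPM in *db/m*, 115 to 1259 CPM in *db/db* and 666 to 1179 CPM in *db/db*-dapa, with *db/db* replicate 1, the highest mouse for Cyp24a1, at 115 CPM. In the diabetic mice that sum was carried mostly by Slc6a18, at 73.8 to 938 CPM. In *db/m*, Slc6a18, at 416 to 519 CPM, and Slc7a13 both made up much of it, so its makeup differed between the groups. Over both diabetic groups against *db/m*, 4 of the 6 S3 markers were lower and 2 higher. Slc5a1 had the highest log2 fold change, at 0.66, with 67.5 to 77.6 CPM in *db/m*, 28.9 to 171 CPM in *db/db* and 131 to 147 CPM in *db/db*-dapa. Of the lower ones, Slc22a7 and Slc7a13 separated *db/m* from the diabetic mice. Slc22a7 was at 42.9 to 73.5 CPM in *db/m* and 0.200 to 0.525 CPM in the 6 diabetic mice, and Slc7a13 at 310 to 484 CPM and 7.40 to 125 CPM. Both were among the 2 of 6 S3 markers called lower over both diabetic groups, Slc22a7 with an adjusted p of 1.77e-07 by edgeR and Slc7a13 with one of 0.0608, which was lost without *db/db*-dapa replicate 2 (0.158) or 3 (0.103) or any 1 of the *db/m* mice (0.234, 0.125 and 0.149). Thick ascending limb markers summed to 964 to 1799 CPM in *db/m*, 467 to 1197 CPM in *db/db* and 589 to 687 CPM in *db/db*-dapa, where all mice were below *db/m*. Of these 5 markers, Umod was called lower over both diabetic groups at a log2 fold change of -1.38 (adjusted p 0.0773 by edgeR), which was lost without *db/db*-dapa replicate 2 (0.194) or 3 (0.155) or any 1 of the *db/m* mice (0.212, 0.102 and 0.295). Distal convoluted and connecting tubule markers summed to 311 to 900 CPM in *db/m*, 383 to 694 CPM in *db/db* and 348 to 414 CPM in *db/db*-dapa, and did not separate the groups. The part of segment makeup or of other tubule cells in the Cyp27b1 and Cyp24a1 differences was not tested, and in sorted bulk RNA fewer cells of a type and less RNA per cell cannot be told apart.

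No difference with dapagliflozin was detectable in either enzyme gene. In *db/db*-dapa against *db/db*, the log2 fold change was 0.12 for Cyp27b1 (95% interval -0.62 to 0.87) and -0.57 for Cyp24a1 (-1.55 to 0.42), and both groups overlapped for both genes. The value for Cyp24a1 was -0.23 when *db/db* replicate 1 was left out and -0.74 when *db/db* replicate 2 was, and that for Cyp27b1 was 0.43 and -0.11 when *db/db*-dapa replicates 1 and 3 were left out in turn. The intervals leave room for changes of up to 1.83-fold higher for Cyp27b1 and down to 0.342-fold for Cyp24a1. Of the 10 genes, 0 were called and 0 passed at any fold, as for all genes tested, where 0% were called and 0% passed at any fold. The lowest adjusted p among the 10 was 0.854, and at an unadjusted p under 0.05 the comparison held 808 of all genes and 0 of the 10. DESeq2 called 13 genes in all and limma 0, and neither called any of the 10. Only Pdzk1, 1 of the 10, had groups with no overlap, against 10.2% of all genes.

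*db/db*-dapa mice were also compared with *db/m*, which shares its control mice with the first comparison. Here too Cyp27b1 and Cyp24a1 were the 2 genes of the 10 called, against 1.05% of all genes, and the 2 that passed at any fold, against 1.31%. Vdr and Slc20a2 passed as well, at under 2-fold, in the fit of the compared groups alone (adjusted p 0.0817 and 0.0978 by edgeR) and without *db/db* replicate 3 (0.0662 and 0.0781). The log2 fold change was 2.44 (SE 0.37, adjusted p 0.0171 by edgeR) for Cyp27b1 and 2.40 (SE 0.47, adjusted p 0.0585) for Cyp24a1. Cyp27b1 lost its call without *db/m* replicate 1 (adjusted p 0.12), *db/m* replicate 3 (0.104) or *db/db*-dapa replicate 2 (0.106), with log2 fold changes of 2.23 to 2.33. Cyp24a1 lost it without *db/m* replicate 1 (0.202), *db/db*-dapa replicate 2 (0.171) or *db/db*-dapa replicate 3 (0.205), with log2 fold changes of 2.26 to 2.57. *db/db*-dapa and *db/m* were fully separated in 5 of the 10 genes (Slc34a1, Slc20a2, Cyp27b1, Cyp24a1 and Vdr), against 28.1% of all genes.

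When all 6 diabetic mice were set against the 3 *db/m* mice, Cyp27b1 was 5.21-fold higher (95% interval 3.11 to 8.75, adjusted p 0.00738 by edgeR) and Cyp24a1 6.42-fold higher (3.25 to 12.7, adjusted p 0.0152). Again these were the 2 of 10 genes called, against 2.02% of all genes, and the 2 that passed at any fold, against 3.92%. Both calls held in all 21 alternatives. In 4 of the 10 genes (Slc34a1, Cyp27b1, Cyp24a1 and Vdr) all 6 diabetic mice were above all 3 *db/m* mice, against 9.73% of all genes with groups that did not overlap. The exact two-sided permutation test gave an unadjusted p of 0.0238 for each of these 4, the smallest that 6 against 3 mice can give. Full separation fixes this test at that value, so it adds nothing to the separation itself. With 3 against 3 mice this test cannot go below 0.1.

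Vdr (chr15:97854425-97910630, minus strand), the nuclear receptor for calcitriol, was measured at 162, 198 and 161 CPM in *db/m*, 206, 203 and 314 CPM in *db/db*, and 207, 299 and 307 CPM in *db/db*-dapa. The diabetic groups overlapped with each other and lay just above *db/m*, with the 3 libraries high in long transcripts (the longest Vdr transcript has 4370 bases) as the 3 highest. In *db/db* against *db/m* Vdr differed by a log2 fold change of 0.47 (SE 0.23, adjusted p 0.386 by edgeR), and 0.22 without *db/db* replicate 3. With both diabetic groups it was 0.56 (SE 0.20) with an adjusted p of 0.177, and DESeq2 alone among the alternatives gave a value under the threshold (0.0839).

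Kl (chr5:150952607-150993817, plus strand), which encodes the co-receptor that gives FGF receptors their affinity for FGF23, varied more within groups than between them. It was at 570, 676 and 304 CPM in *db/m*, 636, 442 and 1099 CPM in *db/db*, and 563, 817 and 852 CPM in *db/db*-dapa. The 3 groups overlapped, with *db/m* replicate 3 the lowest and *db/db* replicate 3 the highest of all. For Kl, *db/db* against *db/m* gave a log2 fold change of 0.49 (SE 0.35, adjusted p 0.578 by edgeR) and 0.05 without *db/db* replicate 3. Between *db/db*-dapa and *db/db* it was 0.03 (95% interval -0.74 to 0.81). The longest Kl transcript has 5828 bases, and the 3 libraries high in long transcripts were the 3 highest for Kl. In *db/m* replicate 3, the lowest mouse for Kl, the markers of the distal convoluted and connecting tubule, where Klotho is also made, were at their highest sum of 900 CPM. That library also had the lowest rank correlation with transcript length, -0.358. The part of distal cells or of transcript length in its Kl level was not tested.

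Slc34a1 (chr13:55398187-55415592, plus strand), the main brush border phosphate importer, was at 3530, 3776 and 4151 CPM in *db/m*, 6195, 4404 and 4731 CPM in *db/db*, and 4554, 4630 and 4464 CPM in *db/db*-dapa. Every diabetic mouse was above every *db/m* mouse, with *db/db* replicate 1 well above the rest. Slc34a1 had a log2 fold change of 0.42 in *db/db* against *db/m* (SE 0.19, adjusted p 0.346 by edgeR), and of 0.26 without *db/db* replicate 1. Between *db/db*-dapa and *db/db* it was -0.17 (95% interval -0.57 to 0.24), and -0.00735 without *db/db* replicate 1. Over both diabetic groups it was 0.34 (SE 0.16, adjusted p 0.284). The difference thus did not pass the test across all genes in any comparison, and exons of Pfn3 overlap Slc34a1 on the opposite strand, at 26.0 to 59.8 CPM.

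Slc34a3 (chr2:25228898-25234364, minus strand), the second brush border cotransporter of this family, was at 88.0, 103 and 100.1 CPM in *db/m*, 251, 111 and 77.2 CPM in *db/db*, and 116, 119 and 62.1 CPM in *db/db*-dapa. The groups overlapped, and *db/db* replicate 1 was above every other mouse. That library decided the direction: the log2 fold change of *db/db* against *db/m* was 0.59 (SE 0.38, adjusted p 0.541 by edgeR) with it and -0.04 without it. Slc34a1 stood at 20.1 to 22.7 times Slc34a3 per kilobase in *db/m*, 13.5 to 33.6 times in *db/db* and 21.4 to 39.4 times in *db/db*-dapa.

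Slc20a2 (chr8:22476788-22569612, plus strand), a sodium-phosphate importer of the other family, was at 26.3, 41.0 and 35.8 CPM in *db/m*, 29.2, 31.0 and 63.3 CPM in *db/db*, and 46.8, 53.3 and 56.6 CPM in *db/db*-dapa. All *db/db*-dapa mice were above all *db/m* mice, while *db/db* overlapped with both. The 3 highest mice were the 3 libraries high in long transcripts, and the longest Slc20a2 transcript has 3566 bases. The part of the length trend in the difference between *db/db*-dapa and *db/m* is not given here. *db/db*-dapa against *db/m* gave a log2 fold change of 0.61 (SE 0.28, adjusted p 0.283 by edgeR), and *db/db* against *db/m* one of 0.28 (SE 0.29, adjusted p 0.706), or of -0.19 without *db/db* replicate 3. Over both diabetic groups it was 0.44 (SE 0.25, adjusted p 0.354), and 0.21 without *db/db* replicate 3. Exons of Smim19 overlap Slc20a2 on the opposite strand, and Smim19, at 22.1 to 39.1 CPM, was about as high as Slc20a2, so with strand use not stated the Slc20a2 values are uncertain.

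Xpr1 (chr1:155275701-155417415, minus strand), the phosphate exporter, was at 104, 121 and 81.0 CPM in *db/m*, 83.3, 79.4 and 159 CPM in *db/db*, and 117, 149 and 175 CPM in *db/db*-dapa. The 3 highest mice were the 3 libraries high in long transcripts, and the longest Xpr1 transcript has 7492 bases. Xpr1 differed by a log2 fold change of 0.08 in *db/db* against *db/m* (SE 0.28, adjusted p 0.928 by edgeR), which became -0.20 once the length trend was removed. Between *db/db*-dapa and *db/db* it was 0.45 (SE 0.28, adjusted p 0.854), and 0.87 with an adjusted p of 0.0951, still under 2-fold, without *db/db* replicate 3. Leaving out that library left *db/db* replicates 1 and 2, whose rank correlations with transcript length were -0.0837 and -0.192. Those of the *db/db*-dapa mice were -0.00212, 0.304 and 0.325. The part of the length trend in the value of 0.87 was not tested.

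The PDZ scaffolds anchor NaPi-IIa under the brush border membrane. Slc9a3r1 (NHERF1, chr11:115163341-115181181, plus strand) was at 466, 349 and 363 CPM in *db/m*, 262, 382 and 391 CPM in *db/db*, and 324, 358 and 352 CPM in *db/db*-dapa. The groups overlapped, and the log2 fold change of *db/db* against *db/m* was -0.19 (SE 0.20, adjusted p 0.719 by edgeR). Pdzk1 (NHERF3, chr3:96829284-96870926, plus strand) was at 1739, 1606 and 1731 CPM in *db/m*, 1320, 1528 and 1458 CPM in *db/db*, and 1575, 1726 and 1663 CPM in *db/db*-dapa. All 3 *db/db* mice were below the mice of both other groups. Its log2 fold change was -0.24 (SE 0.16, adjusted p 0.55) in *db/db* against *db/m* and 0.20 (SE 0.16, adjusted p 0.854) on dapagliflozin, so neither difference passed. Exons of Gpr89 (19.02 to 34.07 CPM), Cd160 (up to 2.04 CPM) and an antisense gene overlap Pdzk1. In *db/db* against *db/m*, 5 of the 10 genes had groups that did not overlap (Slc34a1, Cyp27b1, Cyp24a1 and Vdr higher, Pdzk1 lower), against 16.4% of all genes.

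**Figure D3:**
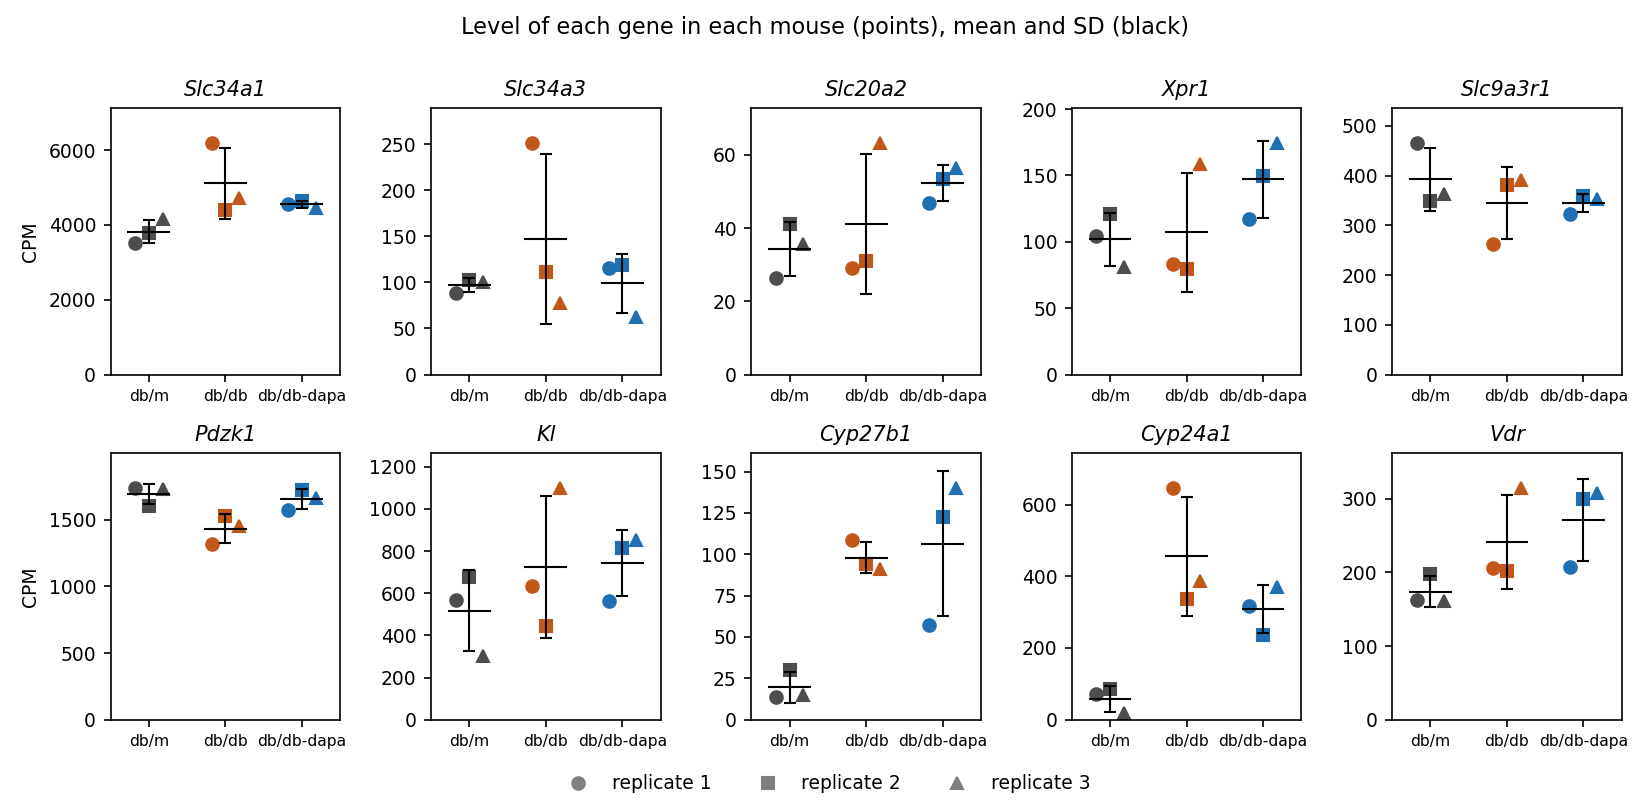
CPM of each gene in each mouse (points, shape for the replicate number), with the group mean and SD (black, n = 3), each panel on its own axis from 0. Cyp27b1 and Cyp24a1 separate *db/m* from both diabetic groups, *db/db* replicate 1 stands out in Slc34a1 and Slc34a3, and *db/db* replicate 3 in Slc20a2, Xpr1 and Kl.

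**Figure D4:**
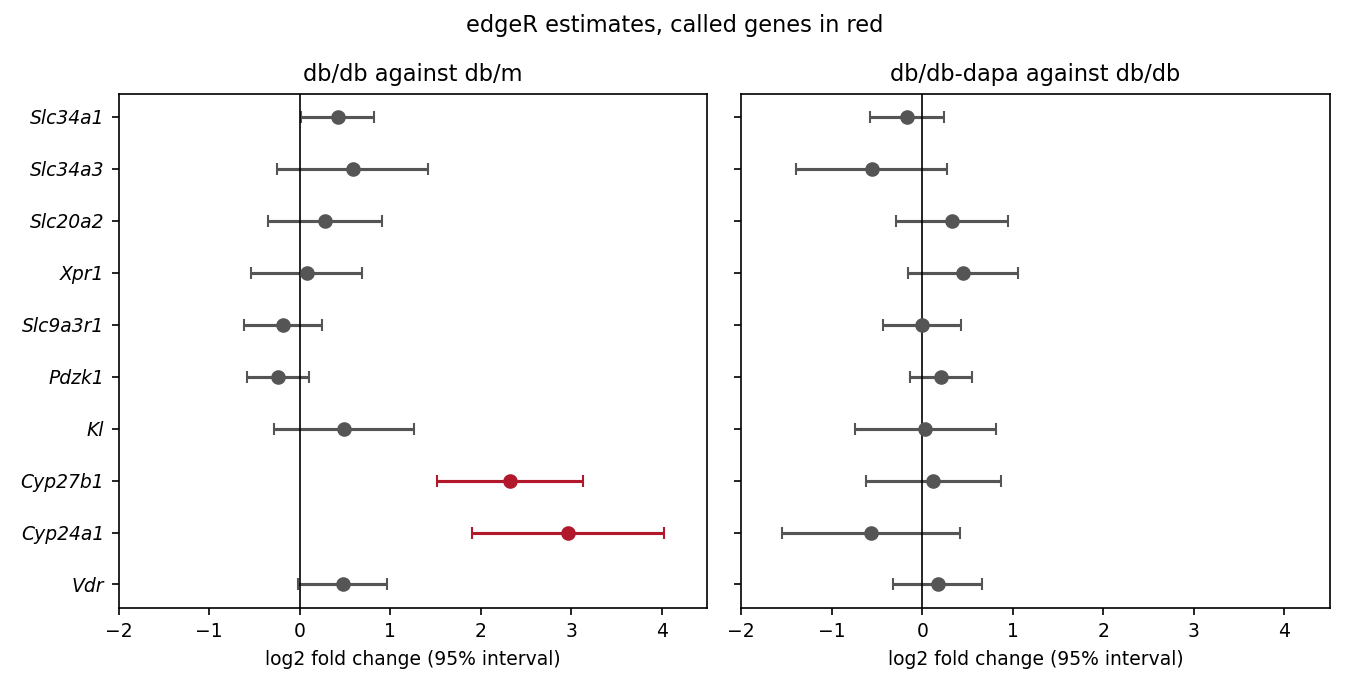
log2 fold change (points) with 95% interval (bars) of each gene by edgeR, for *db/db* against *db/m* (left) and *db/db*-dapa against *db/db* (right). Called genes are red: Cyp27b1 (2.32) and Cyp24a1 (2.97) on the left, none on the right.

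Over the 10 genes, the median log2 fold change of *db/db* against *db/m* was 0.45, with 8 higher and 2 lower, beside a median of 0.02 over all genes tested, of which 51.6% were higher. Of the 8, Slc34a3 turned lower without *db/db* replicate 1 (-0.0445), and Slc20a2 (-0.193) and Xpr1 (-0.337) without *db/db* replicate 3. For *db/db*-dapa against *db/db* the median was 0.08, with 6 higher and 4 lower, beside -0.01 over all genes, of which 48.7% were higher. For both diabetic groups against *db/m* it was 0.39, with 8 higher and 2 lower, beside -0.01 over all genes, of which 49.2% were higher.

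The wider pathway was read from 67 further genes in 9 lists: other phosphate carriers, scaffold partners, parathyroid hormone receptor signalling, FGF receptors and FGF-induced genes, Klotho-cleaving proteases, vitamin D uptake and activation, partners of Vdr, vitamin D-responsive calcium transport, and inositol pyrophosphate enzymes. Of these 65 were tested; Fgf23, with 0 counts in 8 mice and 1 in the other, and Cyp2r1 were not. In *db/db* against *db/m*, 2 of the 65 were called beside 1.24% of all genes, Sgk1 higher and Slc17a3 lower, and Fgfr3 passed at an adjusted p under 0.1 with less than 2-fold. In *db/db*-dapa against *db/db* 0 of 65 were called. The median log2 fold change of the 65 was 0.16 for *db/db* against *db/m* and -0.04 for *db/db*-dapa against *db/db*. Without the genes at 3 counts or fewer in each mouse of a group, these medians were 0.18 over 62 genes and -0.05 over 61.

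Sgk1, a kinase induced by corticosteroids and placed downstream of Klotho and FGF receptors in the control of NaPi-IIa, was at 161, 94.2 and 92.6 CPM in *db/m*, 299, 329 and 307 CPM in *db/db*, and 274, 179 and 267 CPM in *db/db*-dapa. The 3 groups did not overlap, with *db/db*-dapa between the others. The log2 fold change of *db/db* against *db/m* was 1.42 (SE 0.25, adjusted p 0.0239 by edgeR) and stayed called in all 22 alternatives. Over both diabetic groups it was 1.24 (adjusted p 0.0227), and 1.09 without *db/m* replicate 3 (adjusted p 0.116). For *db/db*-dapa against *db/m* it was 1.05 with an adjusted p of 0.0987, which passed in 14 of 22 alternatives and was lost with DESeq2 size factors (0.102), with upper-quartile scaling (0.11), and without *db/m* replicate 2 (0.175), *db/m* replicate 3 (0.288), *db/db* replicate 2 (0.118) or any 1 of the *db/db*-dapa mice (0.129, 0.195 and 0.356). Sgk1 did not pass between *db/db*-dapa and *db/db* (log2 fold change -0.38, SE 0.24, adjusted p 0.854).

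Fgfr3, an FGF receptor, was at 56.7, 50.4 and 45.5 CPM in *db/m*, 81.9, 84.8 and 120 CPM in *db/db*, and 92.8, 99.8 and 124 CPM in *db/db*-dapa, with every diabetic mouse above every *db/m* mouse. Its log2 fold change was 0.91 (SE 0.20, adjusted p 0.0685 by edgeR) for *db/db* against *db/m* and 0.98 (SE 0.18, adjusted p 0.0239) for both diabetic groups. The first was lost in 8 of 22 alternatives: in the fit of the compared groups alone (adjusted p 0.153), with a replicate block (0.113), and without *db/m* replicate 1 (0.184), 2 (0.187) or 3 (0.201), *db/db* replicate 2 (0.106) or 3 (0.112), or *db/db*-dapa replicate 2 (0.133). The second was lost without *db/m* replicate 3 (0.125). In *db/db*-dapa against *db/m* Fgfr3 was called at 1.05 (adjusted p 0.0539), and was lost without *db/m* replicate 1 (0.173), 2 (0.132) or 3 (0.214) or *db/db*-dapa replicate 2 (0.209) or 3 (0.225). It also came to less than 2-fold, with an adjusted p under 0.1, with upper-quartile scaling (0.997) and with the length trend removed (0.953). The 3 libraries high in long transcripts were the 3 highest for Fgfr3, whose longest transcript has 4245 bases.

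Slc17a3, an organic anion carrier of a family first known for phosphate transport, was lower in diabetic mice, at 664, 675 and 862 CPM in *db/m*, 232, 267 and 411 CPM in *db/db*, and 577, 432 and 537 CPM in *db/db*-dapa. The 3 groups did not overlap, and *db/db*-dapa lay between the others. The log2 fold change of *db/db* against *db/m* was -1.27 (SE 0.24, adjusted p 0.0319 by edgeR), and was no longer called without *db/m* replicate 1 (0.101), *db/m* replicate 3 (0.111) or *db/db* replicate 2 (0.113). Between *db/db*-dapa and *db/db* it was 0.76 (SE 0.23), with an unadjusted p of 0.00722 and an adjusted p of 0.854, and in *db/db*-dapa against *db/m* -0.51 (adjusted p 0.274). For both diabetic groups it was -0.89 (adjusted p 0.0505), and was lost without *db/m* replicate 1 (0.159), 2 (0.111) or 3 (0.2) or *db/db*-dapa replicate 2 (0.158) or 3 (0.122).

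The lists are described next by both diabetic groups against *db/m*. Of 6 other phosphate carriers 2 were higher and 4 lower, and of 15 FGF receptors and FGF-induced genes tested 10 were higher and 5 lower, with Slc17a3, Sgk1 and Fgfr3 as the genes that passed. The remaining 7 lists held no gene that passed in any comparison. Of 10 scaffold partners 6 were higher, from Slc9a3, the sodium-proton exchanger held by the same scaffolds, at 1.90 (SE 0.54, adjusted p 0.108 by edgeR) to Pdzk1ip1 at -0.39. Slc9a3 was at 12.9 to 30.9 CPM in *db/m*, 25.5 to 156 CPM in *db/db* and 48.0 to 109 CPM in *db/db*-dapa. Of 9 genes of parathyroid hormone receptor signalling 5 were higher, from the adenylate cyclase Adcy6 at 0.62 to the arrestin Arrb1 at -0.55. Of 4 genes of vitamin D uptake and activation 3 were higher, from the uptake receptor Cubn at 0.90 to Amn, its partner, at -0.58. The 3 libraries high in long transcripts were the 3 highest for Slc9a3 and Cubn and the 3 lowest for Pdzk1ip1 and Amn. The longest transcripts of these genes have 5118, 11262, 1129 and 1701 bases. Adcy6 and Arrb1, with 6038 and 7135 bases, did not have this order. The part of the length trend in these values was not tested.

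Of 6 partners of Vdr 5 were higher, from Rxrg at 0.84 to Rxrb at -0.26. Of 6 genes of calcium transport known to respond to vitamin D 4 were higher, from the calcium pump Atp2b1 at 0.75 to the calcium-binding protein gene S100g at -0.35. Calb1 and Trpv5 of this list are also among the markers of the distal convoluted and connecting tubule. Of the *db/m* mice, replicate 3 had the highest sum of those markers. It was the highest of them for Calb1 (201 CPM) and S100g (450 CPM) and the lowest for Trpv5 (9.10 CPM). The part of distal cells in this list was not tested. The 3 Klotho-cleaving proteases ranged from 0.11 for Adam17 to 0.36 for Bace1. Of 6 inositol pyrophosphate enzymes, whose products bind the exporter Xpr1, 4 were higher, with Ip6k2 the highest at 0.40, and the lowest, Ip6k3, rested on at most 5 counts in any mouse. Adjusted p-values of the genes named here as highest or lowest, Slc9a3 apart, were 0.138 or more. Atp2b1, Bace1 and Adam17, with longest transcripts of 7130, 6058 and 4469 bases, were also highest in the 3 libraries high in long transcripts. S100g, with 480 bases, was at 126 to 145 CPM in these and 127 to 450 CPM in the other 6. Rxrg, Rxrb, Ip6k2 and Ip6k3 did not follow these libraries.

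**Figure D5:**
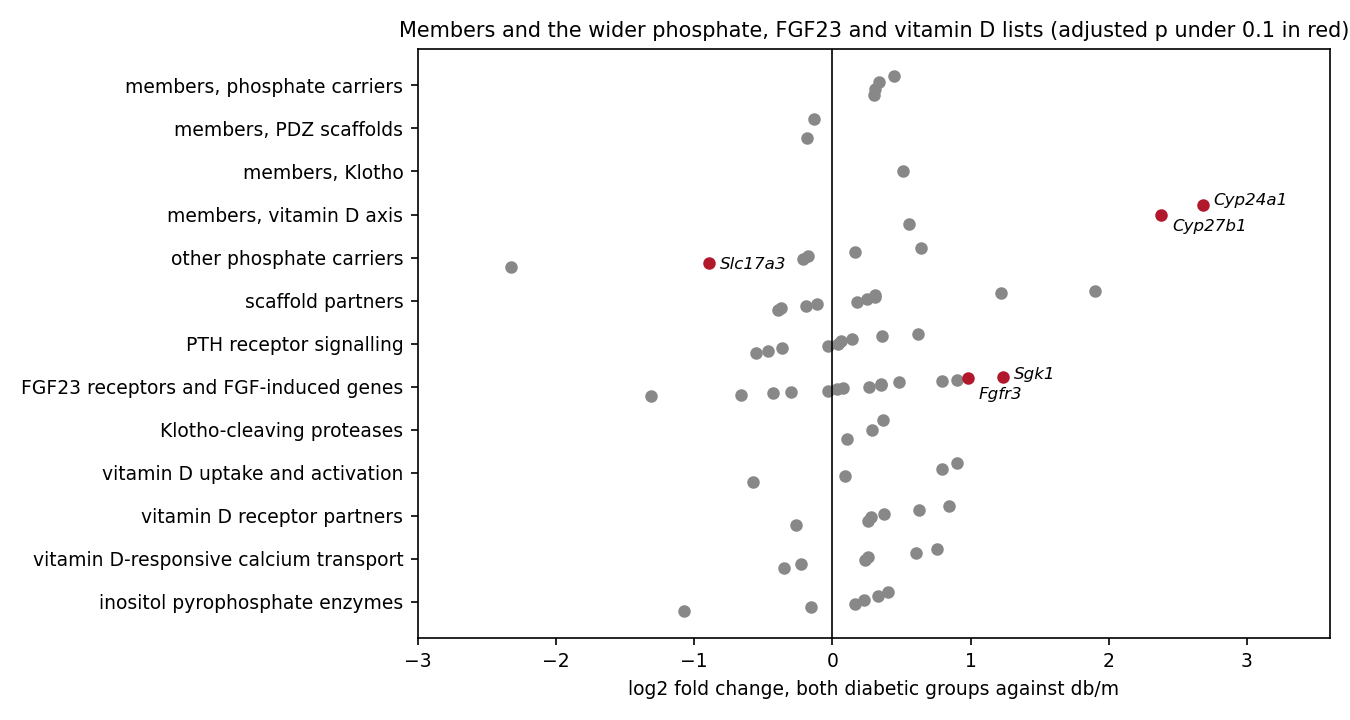
log2 fold change of both diabetic groups against *db/m* for the 10 genes (labelled members) and 65 further pathway genes, 1 point per gene, grouped by list. Red points passed at an adjusted p under 0.1: Cyp24a1 (2.68), Cyp27b1 (2.38), Sgk1 (1.24), Fgfr3 (0.98) and Slc17a3 (-0.89). The point near -2.3 is Slc17a2, which had at most 4 counts in any mouse.

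The genes whose level over the 9 mice was most like that of each of the 10 were found by Pearson's r of log2(CPM + 1), as a description, since the mice share groups and the length trend described above. For Cyp27b1 these were Kat6b (r = 0.969, Spearman's rho = 0.833) and Pml (0.967, 1), and for Cyp24a1 2210404O09Rik (0.959, 0.933) and Camk2d (0.957, 0.833). Vdr was closest to Eea1 (0.994, 0.883) and Trip11 (0.99, 0.933), and Kl to Lats1 (0.981, 0.983) and Creb3l2 (0.98, 0.983). Kat6b is a histone acetyltransferase, Pml the organiser of nuclear bodies, and Lats1 a kinase of the Hippo pathway. Slc34a1 was closest to Tmprss4 (0.951, 0.883) and Tfap4 (0.95, 0.967), and Slc34a3 to Edn1 (0.977, 0.933) and Lctl (0.957, 0.817). Slc20a2 was closest to Wdr7 (0.981, 0.983) and Kif3b (0.972, 0.967), and Xpr1 to Adam10 (0.991, 1), one of the Klotho-cleaving proteases, and Nek7 (0.99, 0.95). Edn1 encodes the precursor of the vasoconstrictor endothelin, and Adam10 is thus the one neighbour that the pathway lists also hold. Slc9a3r1 was closest to Gse1 (0.954, 0.733), and Pdzk1 to Gorasp2 (0.945, 0.883) and Lias (0.943, 0.967). None of the neighbours named here was itself one of the 10 genes.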

How the data were processed

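RNA from FACS-sorted tdTomato-positive, DAPI-negative cortical cells of 9 mice, taken as separate animals, was sequenced. Per the submitters' processing notes the tools were TopHat2 2.0.13, Bowtie2 2.2.3, SAMtools 0.1.19 and Cufflinks 2.2.1, with build mm10. The deposited table holds estimated counts per gene and mouse, made by the authors, although it is named as FPKM: 91.0% of its values are whole numbers and column sums differ. How these estimated counts were made, and whether strand was used, is not given in the sources used here. No row lacked a gene name (0) and 0 sample columns were unused.

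Values were rounded, and genes with at least 0.3 CPM in at least 2 mice went into edgeR 4.0.16's quasi-likelihood test, fitted the older way (R 4.3.3, TMM scaling, 9 mice in 1 fit, Benjamini-Hochberg adjustment). Calls required more than 2-fold change with adjusted p under 0.1. Standard errors were derived from the F value. CPM are TMM-scaled. Groups follow the labels. DESeq2 1.42.0 and limma 3.58.1 (log2(CPM + 1)) were alternatives, with other scalings, filters and fits, each mouse left out, and, added after seeing the data, removal of the transcript length trend. The code was tested on simulated data. Single values were tested by exact two-sided permutation over mice. The 10 genes were named in full; of other lists, genes passing in any comparison, otherwise the highest and lowest, and for likeness the 2 genes with the highest r, of which 1 is not reported here. The genes and lists were chosen with earlier results of these data known. Coordinates and lengths are from GENCODE M21 (GRCm38), matched by symbol for 23350 of 24421 genes.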

Additional observations from a re-analysis of the deposited data

How the results depend on the processing

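With 3 mice per group, 1 library could decide a value. The number of genes called was 194 for *db/db* against *db/m*, 363 with DESeq2, 114 in the fit of the compared groups alone, and 84 to 230 with 1 mouse left out, with over 1.5 times fewer when *db/m* 1, *db/m* 3 or *db/db* 2 was dropped. For *db/db*-dapa against *db/db* it was 0, 13 with DESeq2 and 0 to 272 with 1 mouse left out, the 272 when *db/db* 3 was dropped and 1 call when *db/db*-dapa 2 was. For *db/db*-dapa against *db/m* it was 164, 507 with DESeq2, 275 with no filter, 626 in the fit of the compared groups alone, and 14 (without *db/db*-dapa replicate 2) to 662 (without *db/db* replicate 3), over 1.5 times fewer also without *db/db*-dapa 3 or any 1 of the *db/m* mice, and over 1.5 times more without *db/db*-dapa 1. For both diabetic groups it was 314, 499 with DESeq2 and 106 (without *db/m* replicate 1) to 427 with 1 mouse left out, over 1.5 times fewer without any 1 of the *db/m* mice or *db/db*-dapa 2 or 3. The causes were not tested. With library totals in place of TMM, the median log2 fold change of all genes in *db/db* against *db/m* moved by 0.105 and 60.3% of calls were higher, against 43.8%; for both diabetic groups the shares were 60.6% and 48.7%.

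No called difference reversed. With 1 mouse left out, *db/db* against *db/m* gave -0.0445 (without *db/db* replicate 1) to 0.885 for Slc34a3, -0.193 (without *db/db* replicate 3) to 0.466 for Slc20a2 and -0.337 (the same mouse) to 0.253 for Xpr1, which was -0.203 with the length trend removed. Over both diabetic groups Slc34a3 ranged from -0.0101 to 0.459. Leaving 1 mouse out of *db/db*-dapa against *db/db* gave -0.851 to 0.0689 for Slc34a3, -0.109 to 0.432 for Cyp27b1, -0.223 to 0.48 for Kl and -0.166 to 0.111 for Slc9a3r1. There Kl was also -0.0349 with library totals and -0.0212 with upper-quartile scaling, and Slc9a3r1 (-0.00224 as reported) was 0.0203 and 0.0205 with limma at pseudocounts of 1 and 0.1, 0.00105 with no filter, 0.00304 with the replicate block and 0.0255 with the length trend removed.

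Mice with the same replicate number were not paired by the labels. Their deviations correlated at -0.323 to 0.563 over 9 pairs, against -0.61 to 0.359 over 18 other pairs, and 4 of 9 mice had their highest correlation with a mouse of their own number. The replicate block gave 185, 0, 167 and 259 calls in the 4 comparisons, and Cyp27b1 and Cyp24a1 stayed called in the 3 against *db/m*.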
